A study of Danio rerio with 63 samples.

Results

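The genes described here are the nuclear genes of oxidative phosphorylation, followed in cultured explants of the zebrafish (Danio rerio) blastoderm. They were chosen by name and abundance: protein-coding genes whose symbol begins with nduf, cox4 to cox8, atp5, uqcr or sdha to sdhd, with more than 63 counts over all libraries. Of the 32057 genes in the table, 101 protein-coding genes had such a symbol, 85 of them passed the minimum and are called the members below, and 84 were tested. They hold subunits and assembly factors of the respiratory complexes I to IV, subunits of ATP synthase and its inhibitor.

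Oxidative phosphorylation takes place in the inner mitochondrial membrane. Complex I takes electrons from NADH and complex II takes them from succinate, complex III passes them to cytochrome c, and complex IV hands them to oxygen. Complexes I, III and IV pump protons, and ATP synthase lets the protons back to make ATP. A few subunits are encoded by mitochondrial DNA and all others, including every subunit of complex II, by nuclear genes. An early fish embryo carries mitochondria and mRNA laid down in the egg, and starts transcription of its own genome at the blastula stage.

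Libraries of polyadenylated RNA came from explants of 3 kinds of embryo. For the ndr2 explants, 10 pg of mRNA encoding ndr2, a Nodal ligand, had been injected when the embryo was 1 cell. For the CA-acvr1b* explants, the mRNA injected at that time was 0.5 pg of a constitutively active Nodal receptor. Uninjected explants, the controls, had no injection of any kind. Nodal is the signal that induces mesoderm and endoderm in the fish embryo. All explants were cut at about 3 hours post fertilization (hpf) and cultured until collection at 7 stages: sphere, 30% epiboly, 50% epiboly, shield, 75% epiboly, 90% epiboly and 2-somite. The stages lie at 4, 4.7, 5.3, 6, 8, 9 and 11 hpf in that order. Each of the 21 combinations of condition and stage had 3 libraries, which the study calls biological replicates. Genotype, strain and the number of explants in a library are not given in the sources used here. Stage, age and time in culture rise together and cannot be told apart.

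The 63 libraries held between 11756626 and 19650245 counts, with a median of 15620678. Levels are given as CPM, the counts scaled to a common library total and by TMM factors, and errors are SDs over 3 libraries unless an SE is named. The limit that a count of 0 allows, 3 counts, was worth between 0.144 and 0.275 CPM. A gene is called at an adjusted p under 0.05 in edgeR's quasi-likelihood F-test over all 19069 genes tested. CPM take no account of gene length, so levels are compared between samples, not between genes.

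Several well-known subunits could not be followed. Of the 101 genes, 16 had 63 or fewer counts, a share of 15.8%, against 24.2% of all 25107 protein-coding genes. Listed at 0 in every library were ndufa1, ndufa12, ndufa4, ndufb4, ndufb5, ndufb9 and sdhc, which is 6.93% of the 101 against 8.91% of protein-coding genes. All 13 protein-coding genes of mitochondrial DNA and 24 mitochondrial tRNA and rRNA genes were also at 0 in every library. A value of 0 in this table is therefore not read as absence, and the cause was not tested. Just above the minimum of 63 stood cox5b2 and cox6b1 with 92 counts each and ndufa8 with 135, and just below it uqcrq with 58, cox8b with 47 and cox7a1 with 10. cox5b2 was not tested because of its low counts. In all, 9 of the 85 members had fewer than 1000 counts over the 63 libraries and the other 76 had at least 1936. The 9 were cox5b2, cox6b1, ndufa8, ndufs1, cox6a2, sdhda, uqcrb, cox4i2 and ndufs7.

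With TMM factors, most subunits of complexes I and IV and of ATP synthase rose over the course in all 3 conditions. In each condition 3 of the 4 tested subunits of complex II fell. At 2-somite against sphere, 49 members rose and 13 fell in ndr2 explants, 52 rose and 13 fell in CA-acvr1b* explants, and 49 rose and 11 fell in uninjected explants. Of all genes tested, 35.4% were called higher and 32.5% lower in ndr2 explants, 35.7% and 32.1% in CA-acvr1b* explants, and 33.2% and 33.1% in uninjected explants. The members' median log2 fold change was 1.01 in ndr2 explants, 1.47 in CA-acvr1b* explants and 1.35 in uninjected explants, where the medians of all genes were 0.11, 0.17 and 0.03. Of the 84 members, 45 were called higher in all 3 conditions, 11 were called lower in all 3, and 15 were called in none. The same overlap was not counted over all genes. In either direction 73.8% of members and 67.9% of all genes were called in ndr2 explants. The shares were 77.4% and 67.8% in CA-acvr1b* explants, and 71.4% and 66.3% in uninjected explants. No member was called in opposite directions in different conditions. Without the members under 1000 counts, 47 rose and 10 fell in uninjected explants.

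The size of these changes depends on how libraries are scaled. Scaled to library totals alone, the median of all genes moved by -0.37 in ndr2, -0.33 in CA-acvr1b* and -0.32 in uninjected explants. With that scaling 41 members rose and 17 fell in ndr2 explants, 44 rose and 16 fell in CA-acvr1b* explants, and 41 rose and 17 fell in uninjected explants. Of all 19069 genes tested, the same scaling called 5700 higher and 7332 lower in ndr2 explants. It called 5930 higher and 7144 lower in CA-acvr1b* explants, and 5398 and 7348 in uninjected explants. Among the called members whose direction turned were uqcrfs1 (-0.01) and ndufa4l (-0.16) in ndr2 explants and ndufa4l (-0.03) in uninjected explants, none of them called with that scaling.

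**Figure D1:**
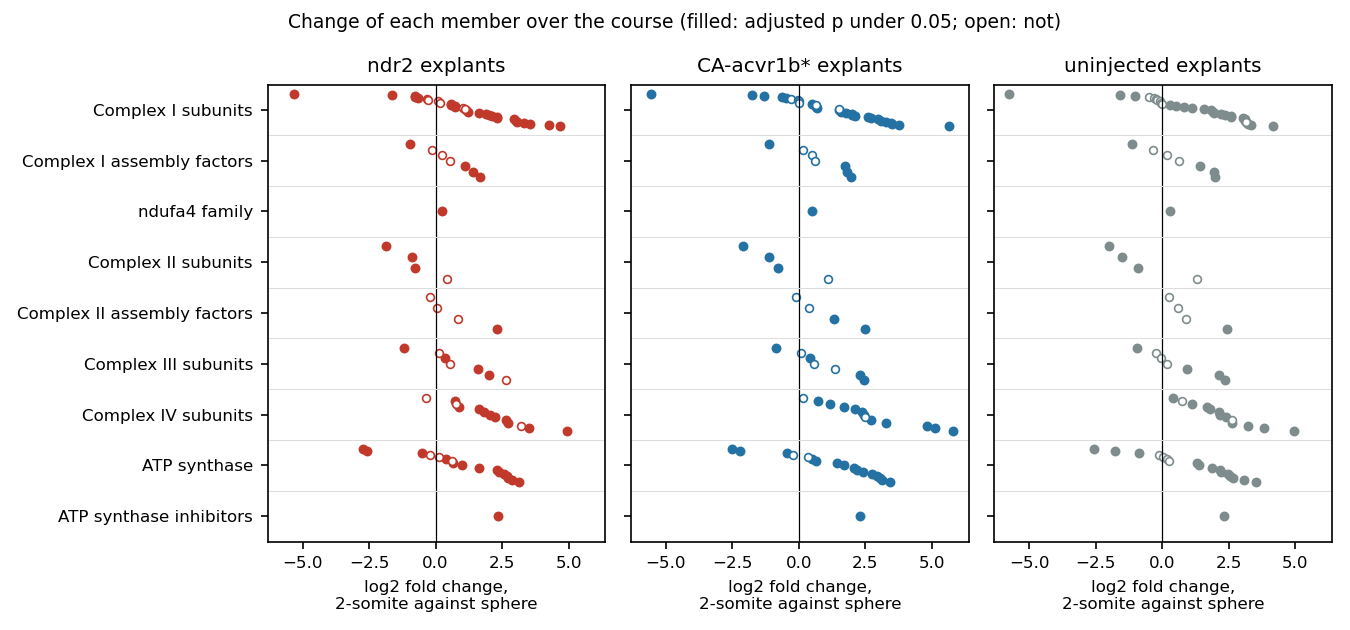
Log2 fold change of each tested member at 2-somite against sphere (x axis), by complex or role (rows), for ndr2, CA-acvr1b* and uninjected explants from left to right. Each point is 1 gene; filled points were called and open points were not. Complex IV points lie right of 0 but for 1 open point in ndr2 explants, and the filled complex II subunits lie left of it. The point far left in the complex I row is ndufa8, which had no count at 2-somite.

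Complex I, the NADH dehydrogenase, had 30 tested subunits. Of these, 19 rose and 5 fell in each injected condition, and 19 rose and 3 fell in uninjected explants. The medians were 1.14 in ndr2, 1.51 in CA-acvr1b* and 1.72 in uninjected explants on the log2 scale. On library totals 16 rose and 7 fell in ndr2 explants. With that scaling 15 rose and 6 fell in CA-acvr1b* explants, and 15 rose and 7 fell in uninjected explants. The subunit with the largest rise in CA-acvr1b* and uninjected explants was ndufa6 (ENSDARG00000038028), an accessory subunit of the arm that reaches into the matrix; in ndr2 explants ndufa3 rose more, by 4.68 on the log2 scale. In ndr2 explants ndufa6 stood at 30.8, 28.5 and 24.6 CPM at 2-somite, against 2.08, 0.986 and 1.29 CPM at sphere. The CA-acvr1b* libraries held 24.1, 21.4 and 20.6 CPM, against 0.681, 0.377 and 0.242 CPM at sphere. In uninjected explants it stood at 20.8, 20.5 and 23.6 CPM at 2-somite, against 2.51, 0.340 and 0.770 CPM at sphere. All 2-somite libraries lay above all sphere libraries in each condition, with log2 fold changes of 4.26 in ndr2, 5.65 in CA-acvr1b* and 4.18 in uninjected explants (SE 0.41, adjusted p 4.18e-13 in the last). The accessory subunits ndufs6, ndufb3, ndufs5, ndufa5 and ndufa3 rose by 3.33, 3.25, 3.21, 3.10 and 3.05 on the log2 scale in uninjected explants.

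Some complex I subunits fell in the same libraries. ndufv1 (ENSDARG00000036438), the core subunit that binds NADH and FMN, drew the most counts of the complex I subunits. It stood at 42.6, 50.2 and 41.8 CPM in ndr2 explants at 2-somite, against 142, 143 and 135 CPM at sphere. The CA-acvr1b* libraries held 36.3, 48.9 and 39.4 CPM, against 145, 141 and 139 CPM at sphere. Uninjected libraries held 49.8, 55.6 and 46.6 CPM at 2-somite, against 171, 136 and 147 CPM at sphere. Its log2 fold change was -1.64 in ndr2, -1.77 in CA-acvr1b* and -1.58 in uninjected explants (SE 0.17, adjusted p 1.02e-11 in the last), with no overlap between the stages. ndufv2, the core subunit that joins ndufv1 in the NADH-oxidizing module, went the other way, with log2 fold changes of 2.94 in ndr2, 3.45 in CA-acvr1b* and 2.60 in uninjected explants. ndufv3, an accessory subunit of that module, fell, by 0.79 in ndr2, 1.32 in CA-acvr1b* and 1.04 in uninjected explants on the log2 scale. Among the other core subunits, ndufs3 rose in uninjected explants by 0.54, ndufs8a was not called at -0.30, and ndufs1 and ndufs7 rested on few counts.

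ndufa8, an accessory subunit of the membrane arm, had no count in any of the 9 libraries at 2-somite. At sphere it had 4, 4 and 11 counts in ndr2 explants, 5, 3 and 13 in CA-acvr1b* explants and 10, 7 and 7 in uninjected explants. Set against a limit of 3 counts per library, ndufa8 was at least 2.15-fold lower at 2-somite than at sphere in uninjected explants. Its call was lost without replicate A, B or C. ndufs7 was called only in uninjected explants (adjusted p 0.0471), on 15, 17 and 7 counts at 2-somite against 4, 0 and 1 at sphere, and lost its call without replicate B or C and on library totals.

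Complex I also needs assembly factors that are not part of the finished enzyme, and 7 were tested. In each condition 3 of them rose (ndufaf1, ndufaf3 and ndufaf7) and 1 fell (ndufaf2). ndufaf3 stood at 43.5, 41.6 and 33.5 CPM in ndr2 explants at 2-somite, against 11.9, 12.6 and 12.9 CPM at sphere. ndufaf2 stood at 12.2, 10.9 and 10.2 CPM in ndr2 explants at 2-somite, against 20.6, 24.1 and 21.1 CPM at sphere. No library of one stage overlapped the other for either gene, and their log2 fold changes in uninjected explants were 1.96 (SE 0.20, adjusted p 2.46e-12) for ndufaf3 and -1.11 (SE 0.27, adjusted p 3.44e-04) for ndufaf2. ndufa4l, named after a complex I subunit but belonging to a family now assigned to complex IV, had log2 fold changes of 0.22 in ndr2, 0.50 in CA-acvr1b* and 0.31 in uninjected explants, and on library totals -0.16 in ndr2 and -0.03 in uninjected explants.

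Complex II, succinate dehydrogenase, joins the citric acid cycle to the respiratory chain, and 3 of its 4 tested subunits fell in every condition. sdha (ENSDARG00000016721), the flavoprotein that oxidizes succinate, stood at 51.8, 44.8 and 46.6 CPM in ndr2 explants at 2-somite, against 92.8, 90.7 and 84.5 CPM at sphere. In CA-acvr1b* explants it stood at 44.4, 41.1 and 39.8 CPM, against 91.4, 90.6 and 93.3 CPM at sphere. In uninjected explants it stood at 28.5, 36.8 and 34.4 CPM, against 101, 87.8 and 95.3 CPM at sphere. Every 2-somite library lay below every sphere library, and uninjected explants were lowest at 2-somite. The log2 fold changes of sdha were -0.90 in ndr2, -1.14 in CA-acvr1b* and -1.51 in uninjected explants (SE 0.13, adjusted p 6.21e-15 in the last).

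The other complex II subunits that fell were sdhb, the iron-sulfur subunit, and sdhdb, a membrane anchor. sdhdb (ENSDARG00000030139) stood at 11.2, 10.6 and 8.81 CPM in ndr2 explants at 2-somite, against 36.0, 37.1 and 37.9 CPM at sphere. CA-acvr1b* libraries held 6.44, 9.51 and 7.08 CPM, against 31.4, 30.0 and 37.6 CPM at sphere. Uninjected libraries held 8.56, 8.65 and 8.51 CPM, against 30.3, 30.9 and 41.2 CPM at sphere. The stages were again apart, with log2 fold changes of -1.86 in ndr2, -2.10 in CA-acvr1b* and -1.99 in uninjected explants (SE 0.23, adjusted p 1.24e-10 in the last). sdhb fell by 0.79, 0.77 and 0.90 in the same order of conditions. sdhda, the other copy of the anchor, had 227 counts in all and was not called. Of 4 complex II assembly factors, sdhaf4 rose in all 3 conditions (2.31 in ndr2, 2.48 in CA-acvr1b* and 2.43 in uninjected explants), sdhaf2 was called in CA-acvr1b* explants (1.33) and not in ndr2 (0.85) or uninjected explants (0.60), and sdhaf1 and sdhaf3 were not called.

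Complex III, the cytochrome bc1 complex, was divided. Of 7 tested subunits, 3 rose and 1 fell in each condition, and on library totals the median in uninjected explants turned to -0.15 where it was 0.19. uqcrh, the acidic hinge protein, stood at 90.5, 86.8 and 80.6 CPM in ndr2 explants at 2-somite, against 31.5, 28.2 and 25.2 CPM at sphere. In uninjected explants uqcrh stood at 86.7, 114 and 104 CPM, against 26.9, 18.6 and 23.2 CPM. The stages did not overlap, and the log2 fold changes of uqcrh were 1.60 in ndr2, 2.46 in CA-acvr1b* and 2.15 in uninjected explants. uqcrc2a, a core protein, rose in all 3 conditions, and uqcrc1, the other core protein, rose in uninjected explants. uqcrfs1, the Rieske iron-sulfur protein, had log2 fold changes of 0.37 in ndr2, 0.43 in CA-acvr1b* and -0.05 in uninjected explants and was called in the injected conditions, though on library totals it stood at -0.01 in ndr2 explants. uqcr10, a small subunit, fell in all 3 conditions, but its uninjected libraries at 2-somite (11.0, 11.3 and 9.61 CPM) overlapped those at sphere (27.1, 8.30 and 26.5 CPM). That call (-0.95, SE 0.36, adjusted p 0.0182) was lost without replicate A or C.

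Complex IV, cytochrome c oxidase, had no subunit that fell. Of 13 subunits, 10 rose in ndr2 explants, 11 in CA-acvr1b* explants and 11 in uninjected explants, and the medians were 2.05, 2.47 and 2.16 on the log2 scale. cox8a (ENSDARG00000095273), a small subunit in the membrane, stood at 63.6, 64.4 and 59.9 CPM in ndr2 explants at 2-somite, against 2.56, 2.17 and 1.34 CPM at sphere. In CA-acvr1b* explants it stood at 67.2, 78.2 and 51.5 CPM, against 1.68, 2.83 and 1.16 CPM at sphere. In uninjected explants it stood at 64.1, 67.7 and 64.9 CPM, against 3.62, 1.36 and 1.44 CPM at sphere. The 3 conditions overlapped at both stages while the stages lay far apart. The log2 fold changes of cox8a were 4.95 in ndr2, 5.14 in CA-acvr1b* and 4.95 in uninjected explants (SE 0.39, adjusted p 4.91e-16 in the last).

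cox4i1, the regulatory subunit IV in its general form, stood at 108, 104 and 88.8 CPM in ndr2 explants at 2-somite, against 27.3, 20.2 and 16.8 CPM at sphere. In CA-acvr1b* explants cox4i1 stood at 106, 103 and 86.7 CPM, against 11.4, 20.97 and 21.1 CPM, and in uninjected explants at 90.7, 93.9 and 100.3 CPM, against 27.3, 17.6 and 18.9 CPM. The stages lay apart in each condition, and the log2 fold change was 2.16 in uninjected explants (SE 0.20, adjusted p 7.14e-14). cox7b, another small subunit, had log2 fold changes of 3.51 in ndr2, 4.80 in CA-acvr1b* and 3.85 in uninjected explants. cox6b2, the complex IV member with the most counts, had 2.04, 2.36 and 2.12. cox5aa, with 0.74, 0.72 and 0.42, changed least among the complex IV subunits called in all 3 conditions. cox4i2, the alternative form of subunit IV, was called only in uninjected explants (adjusted p 0.0482), on 9, 7 and 10 counts at 2-somite against 1, 0 and 2 at sphere, and lost its call without replicate A, B or C and on library totals. cox6b1 was called only in CA-acvr1b* explants, where its sphere libraries held no count and its 2-somite libraries 1, 16 and 4, most of them in 1 library.

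ATP synthase had 17 tested subunits, of which 11 rose and 3 fell in ndr2 explants, 12 rose and 3 fell in CA-acvr1b* explants, and 10 rose and 3 fell in uninjected explants. On library totals 8 rose and 4 fell in ndr2 explants, and 10 rose and 4 fell in each of the other conditions. Subunits of the peripheral stalk rose, led by atp5pd (ENSDARG00000098355). It stood at 35.1, 30.8 and 34.4 CPM in ndr2 explants at 2-somite, against 3.79, 3.70 and 3.88 CPM at sphere. CA-acvr1b* libraries held 28.3, 39.4 and 33.6 CPM, against 1.57, 3.77 and 4.07 CPM at sphere. Uninjected libraries held 34.4, 32.2 and 37.0 CPM, against 3.23, 2.81 and 2.98 CPM at sphere. The stages did not overlap, the CA-acvr1b* libraries varying most, and the log2 fold changes were 3.14 in ndr2, 3.43 in CA-acvr1b* and 3.52 in uninjected explants (SE 0.24, adjusted p 2.92e-18 in the last). The other stalk subunits atp5pb, atp5pf and atp5po rose by 2.66, 2.55 and 2.21 in uninjected explants.

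The large subunits of the catalytic head of ATP synthase did not follow the stalk. atp5fa1 (ENSDARG00000010149), the alpha subunit, stood at 349, 379 and 347 CPM in ndr2 explants at 2-somite, against 553, 455 and 505 CPM at sphere. In CA-acvr1b* explants it stood at 349, 337 and 324 CPM, against 484, 441 and 437 CPM at sphere. In uninjected explants it stood at 260, 285 and 285 CPM, against 553, 524 and 441 CPM at sphere. All 2-somite libraries were below all sphere libraries of their condition, with log2 fold changes of -0.49 in ndr2, -0.43 in CA-acvr1b* and -0.87 in uninjected explants (SE 0.10, adjusted p 4.53e-11 in the last). atp5f1b, the beta subunit, was not called in any condition (0.11, 0.34 and -0.10). The inhibitor atp5if1a, which blocks the enzyme from splitting ATP, rose by 2.33 in ndr2, 2.29 in CA-acvr1b* and 2.32 in uninjected explants on the log2 scale.

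The rotor ring of ATP synthase is built from subunit c, for which 3 genes were measured. atp5mc1 (ENSDARG00000056008) stood at 18.7, 22.6 and 18.7 CPM in ndr2 explants at 2-somite, against 154, 125 and 116 CPM at sphere. CA-acvr1b* libraries held 29.1, 22.6 and 18.7 CPM, against 97.5, 107 and 120 CPM at sphere. Uninjected libraries held 19.5, 18.6 and 21.2 CPM, against 116, 120 and 113 CPM at sphere. Its log2 fold changes were -2.72 in ndr2, -2.20 in CA-acvr1b* and -2.56 in uninjected explants (SE 0.20, adjusted p 3.80e-16 in the last). atp5mc3b rose in uninjected explants to 112 ± 10.9 CPM at 2-somite, against 45.5 ± 4.44 CPM at sphere, a log2 fold change of 1.305, and atp5mc3a was not called there at 0.17. The genes for subunit e differed as well: atp5mea fell by 2.58 in ndr2, 2.53 in CA-acvr1b* and 1.78 in uninjected explants, while atp5meb was not called at -0.22, -0.20 and 0.02.

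Other pairs of duplicate genes also differed in their values. In uninjected explants uqcrc2a had a log2 fold change of 2.36 and uqcrc2b one of 0.19, not called. ndufab1b, an acyl carrier protein of complex I, had 1.58 and its copy ndufab1a -0.06, not called. cox5ab had 1.14 and cox5aa 0.42, both called. Neither ndufa9a (-0.25) nor ndufa9b (-0.18) was called in uninjected explants. How reads shared between near-identical copies were counted is not given in the sources used here, so the split between duplicates is uncertain, and the difference within a pair was not tested.

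**Figure D2:**
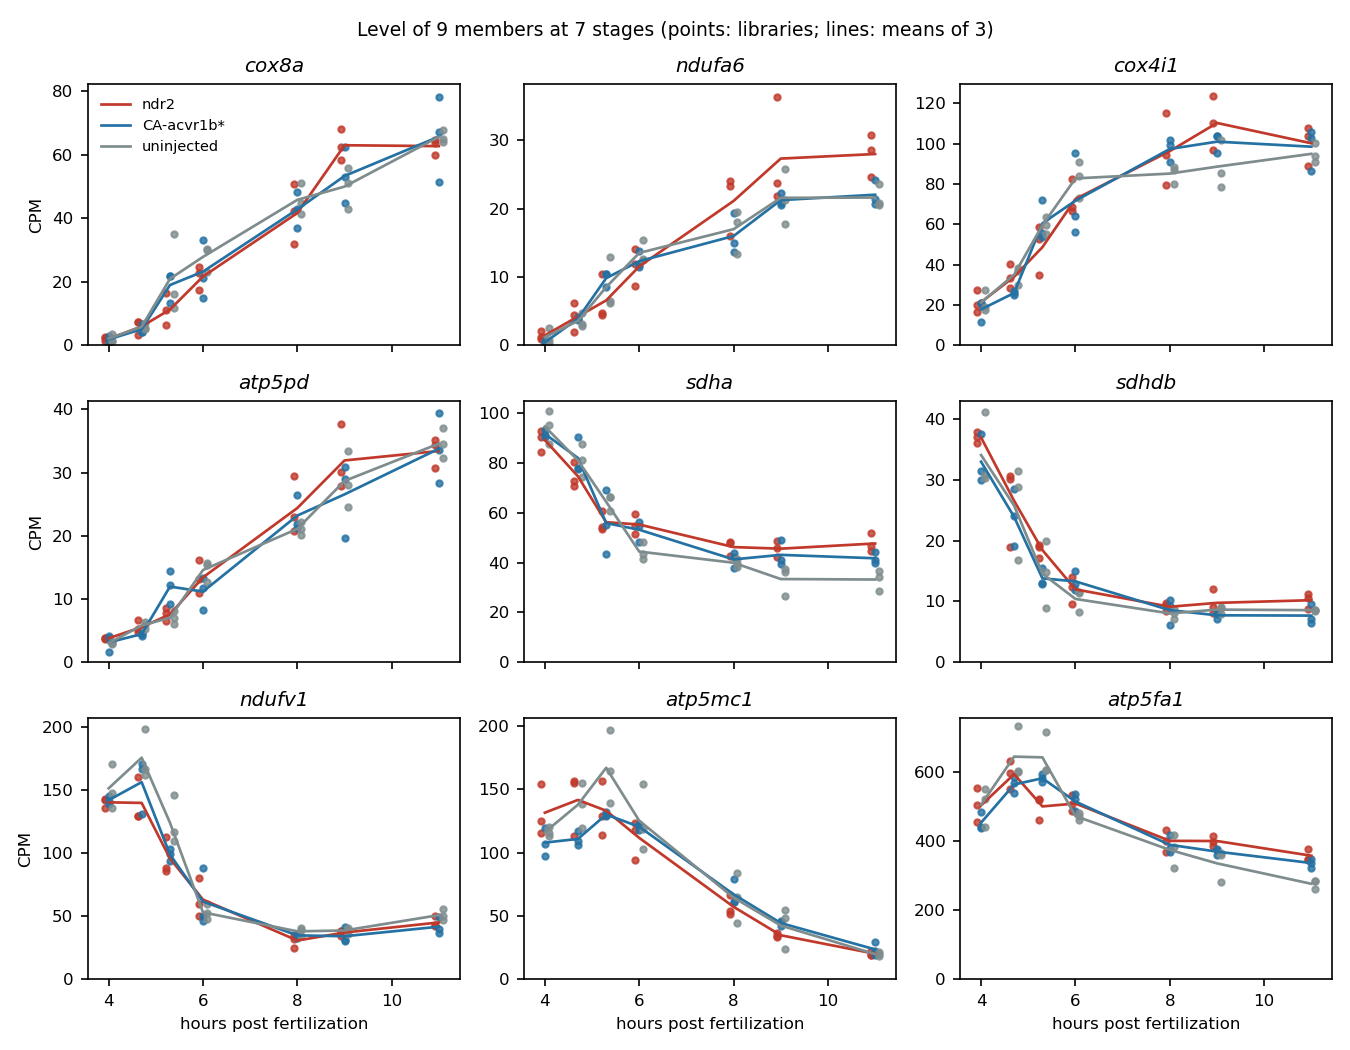
Level of 9 members in CPM (y axes, from 0) against hours post fertilization (x axes). Points are libraries and lines are means of 3 libraries, for ndr2 (red), CA-acvr1b* (blue) and uninjected explants (grey). cox8a, ndufa6, cox4i1 and atp5pd climb over the course; sdha, sdhdb and ndufv1 are far below their sphere levels by shield, while atp5mc1 stays near or above its sphere level until 50% epiboly.

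By shield most members that rose over the whole course were already higher. Of the members that rose at 2-somite against sphere, 45 of 49 in ndr2 explants, 46 of 52 in CA-acvr1b* explants and 42 of 49 in uninjected explants were already called at shield against sphere. Both comparisons use the same sphere libraries, so a low value at sphere favors both calls. The like share over all genes was not counted. For the members that rose, the median log2 fold change up to shield was 1.46 in ndr2, 1.68 in CA-acvr1b* and 1.74 in uninjected explants. After shield it was 0.52, 0.45 and 0.38. Over all members, 46 rose and 8 fell at shield against sphere in ndr2 explants, beside 30.5% and 29.6% of all genes. In CA-acvr1b* explants 49 rose and 9 fell, beside 30.9% and 30% of all genes, and in uninjected explants 48 rose and 7 fell, beside 30.4% and 30.2%. Scaled to library totals, which moved the median of all genes by -0.49, -0.44 and -0.47 in this comparison, 34 members rose and 24 fell in ndr2, 40 rose and 16 fell in CA-acvr1b* and 39 rose and 14 fell in uninjected explants. Of all 19069 genes tested, that scaling called 4482 higher and 7394 lower in ndr2 explants. It called 4642 higher and 7219 lower in CA-acvr1b* explants, and 4492 and 7332 in uninjected explants. On library totals the median over all members was 0.26 up to shield and 0.46 after it in ndr2 explants, so that the later interval had the larger median there, 0.54 and 0.48 in CA-acvr1b* explants, and 0.67 and 0.33 in uninjected explants; with TMM factors it was 0.76 and 0.34, 0.98 and 0.38, and 1.13 and 0.20. Without replicate B, 5 fell in CA-acvr1b* explants.

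From shield to 2-somite fewer members were called. At 2-somite against shield 27 rose and 7 fell in ndr2 explants, beside 23.9% and 22.5% of all genes. In CA-acvr1b* explants 25 rose and 13 fell, beside 24.1% and 20.1%, and in uninjected explants 19 rose and 12 fell, beside 21.1% and 21.7%. The members that rose are 32.1% of those tested in ndr2, 29.8% in CA-acvr1b* and 22.6% in uninjected explants. These counts moved when replicates were left out: 12 rose in ndr2 explants without replicate B, 12 and 10 rose in CA-acvr1b* explants without replicates A and B, and 9 rose in uninjected explants without replicate B or C. Of the falls, 6 were called in CA-acvr1b* explants without replicate C and 5 in uninjected explants without replicate B.

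The named genes show these courses. The mean of cox8a in ndr2 explants was 2.02 CPM at sphere, 5.94 at 30% epiboly, 11.3 at 50% epiboly, 21.6 at shield, 41.6 at 75% epiboly, 62.9 at 90% epiboly and 62.6 at 2-somite. cox4i1 in uninjected explants was at 21.3 CPM at sphere, 35.0 at 30% epiboly, 59.5 at 50% epiboly and 82.8 at shield, and between 85.2 and 94.9 CPM at the later stages. Among the falling genes, sdhdb in uninjected explants was at 34.1 CPM at sphere, 25.8 at 30% epiboly, 14.6 at 50% epiboly and 10.4 at shield, and between 8.03 and 8.66 CPM afterwards. atp5mc1 kept its level longer: in uninjected explants it was at 116 CPM at sphere, 138 at 30% epiboly, 167 at 50% epiboly, 125 at shield, 64.4 at 75% epiboly, 42.3 at 90% epiboly and 19.8 at 2-somite. The stage of the lowest mean was sphere for 45 of 84 members in ndr2, 48 in CA-acvr1b* and 49 in uninjected explants. The highest mean came at 90% epiboly for 32 members in ndr2, 25 in CA-acvr1b* and 10 in uninjected explants, and at 2-somite for 21, 23 and 31. The like counts of lowest and highest stages over all genes were not made.

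Summed over the members, the mean share of a library changed by a smaller fold between sphere and 2-somite than those of complexes II and IV did. All members together held between 0.231% and 0.348% of the counts of every library. At 2-somite the share was 0.327 ± 0.0051% in ndr2, 0.313 ± 0.029% in CA-acvr1b* and 0.301 ± 0.014% in uninjected explants, and at sphere it was 0.303 ± 0.031%, 0.266 ± 0.0082% and 0.289 ± 0.0044%. atp5fa1 and atp5f1b alone held 0.0647% in ndr2, 0.0627% in CA-acvr1b* and 0.0512% in uninjected explants at 2-somite, against 0.0996%, 0.0861% and 0.0953% at sphere. Without these 2 genes the members held 0.262%, 0.250% and 0.249% at 2-somite, against 0.204%, 0.180% and 0.194% at sphere. Since the share of these 2 fell in each condition, the larger rise without them follows from the choice of genes.

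Within the sum, complex IV subunits held 0.0529% in ndr2, 0.0515% in CA-acvr1b* and 0.0509% in uninjected libraries at 2-somite, against 0.0174%, 0.0139% and 0.0162% at sphere. Complex II subunits held 0.00873%, 0.00796% and 0.00707% at 2-somite, against 0.0228%, 0.0221% and 0.0230% at sphere. These shares are of RNA counts, and in explants of mixed cells fewer cells of a type and less RNA per cell cannot be told apart.

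**Figure D3:**
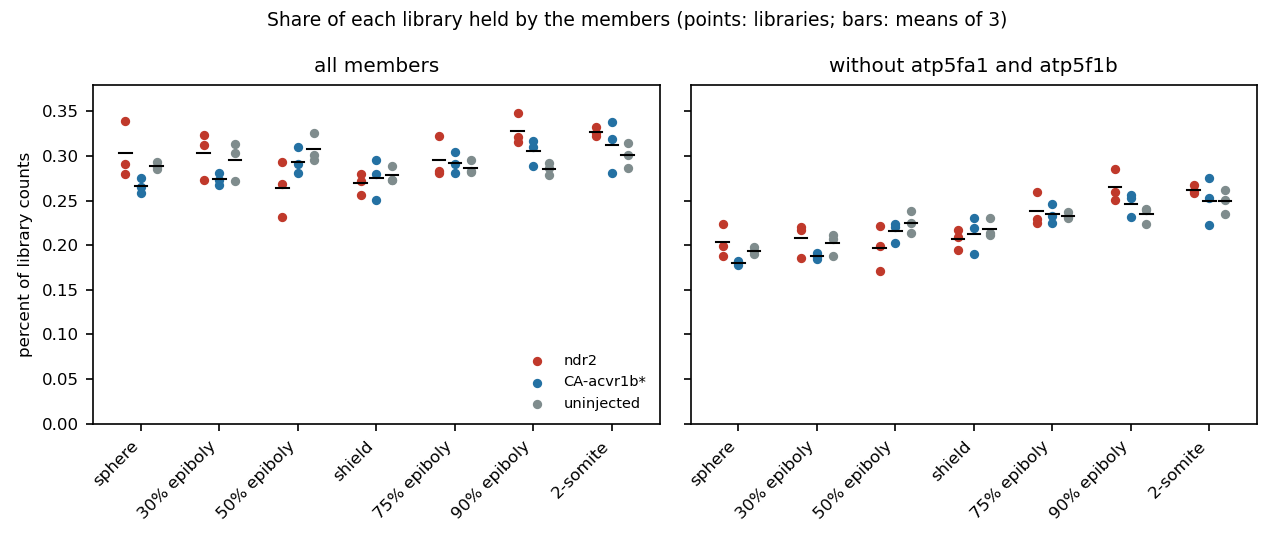
Percent of each library's counts held by all members (left) and by all members but atp5fa1 and atp5f1b (right), at the 7 stages. Points are libraries, bars are means of 3, and each stage shows ndr2, CA-acvr1b* and uninjected explants from left to right. All libraries lie between 0.231% and 0.348% on the left. In both panels the means are higher at 2-somite than at sphere in each condition. On the left the libraries of these stages overlap in ndr2 and uninjected explants.

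Markers of cell types changed in the same interval. The 8 genes of the enveloping layer, the thin outer epithelium of the blastoderm, all rose at 2-somite against sphere in each condition. Their summed level at 2-somite was 14361 to 20511 CPM in ndr2, 17296 to 18324 CPM in CA-acvr1b* and 18906 to 27722 CPM in uninjected explants, against 86.4 to 150.2, 82.8 to 136 and 65.2 to 512 CPM at sphere. krt5 was at 0 in every sphere library of each condition, and krt17 in those of ndr2 explants. The 6 yolk syncytial layer genes summed to at most 18.9 CPM at sphere, shield and 2-somite, and mxtx2 was at 0 at these 3 stages in all 3 conditions. At 2-somite the 5 blastoderm genes summed to 1220 to 1993 CPM in ndr2 and 1134 to 1225 CPM in CA-acvr1b* explants. Uninjected explants held 833 to 1337 CPM. At sphere the sums were 4028 to 4516, 4240 to 4317 and 3998 to 4782 CPM in that order. These genes did not move together. In ndr2 explants 2 rose and 2 fell, and in each of the other conditions 2 rose and 3 fell. In uninjected explants ved and vox rose, while nanog, pou5f3 and sox19b fell. The part of cell types in the members' changes was not tested.

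Other lists of mitochondrial energy metabolism, written from general knowledge, had about as many falls as rises, or more, at 2-somite against sphere in uninjected explants, and values given without a condition are from these explants. Among 30 assembly factors with other symbols, 10 rose and 12 fell. cox10, which makes heme for complex IV, had a log2 fold change of 3.68, and surf1, a complex IV assembly factor, one of 2.43. ecsit, a complex I assembly factor, had -2.97, and tmem70, which helps build ATP synthase, had -2.54. The same list had 8 rises and 13 falls in ndr2 explants and 7 and 13 in CA-acvr1b* explants.

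Of 15 mobile electron carriers and genes of their synthesis, 6 rose and 6 fell. etfdh, which feeds electrons from fatty acid oxidation into ubiquinone, rose to 88.7 CPM at 2-somite, against 4.36 CPM at sphere (4.35 on the log2 scale). pdss2, which makes the tail of ubiquinone, fell to 2.25 CPM, against 38.04 CPM (-4.07). Of 20 genes of the citric acid cycle and pyruvate oxidation, 7 rose and 8 fell. mpc1, a mitochondrial pyruvate carrier, rose by 2.91 and pdhb, of pyruvate dehydrogenase, by 1.92. Citrate synthase (cs) fell to 101 CPM, against 248.5 CPM (-1.29), malate dehydrogenase (mdh2) had -1.42 and sucla2, a succinyl-CoA ligase, -1.82. In ndr2 explants 9 rose and 8 fell, and in CA-acvr1b* explants 8 rose and 6 fell.

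Glycolysis and lactate genes had 9 rises and 14 falls among 31 tested. slc16a3, a lactate transporter, was at 4.72 CPM at 2-somite, against 1216 CPM at sphere (-8.002). pgk1 and pkma, a kinase of mid-glycolysis and a pyruvate kinase, fell by 4.95 and 4.10. Mitochondrial ribosomal proteins had 24 rises and 22 falls among 63 tested in uninjected explants, 28 and 19 in ndr2 and 31 and 18 in CA-acvr1b* explants. Carriers and import genes had 11 rises and 16 falls among 32, with vdac1, the outer membrane channel, at 2.76 and the chaperonin hspd1 at -2.27. Regulators of mitochondrial biogenesis had 9 and 9 among 26, with polg2, of the mitochondrial DNA polymerase, at 3.02 and pprc1, a PGC-1-related coactivator, at -2.28.

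**Figure D4:**
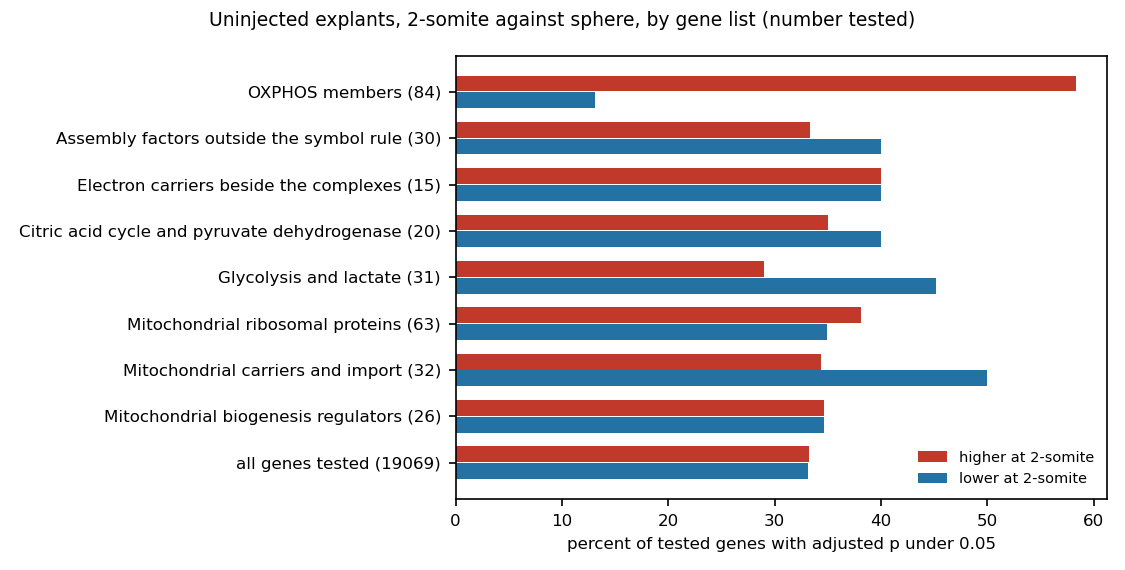
Percent of tested genes called higher (red) and lower (blue) at 2-somite against sphere in uninjected explants (x axis), by list, with the number tested in brackets. The members, in the top row, had 58.3% higher and 13.1% lower, and all genes tested, in the bottom row, 33.2% and 33.1%.

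Few members were called between conditions. Before 2-somite, 6 of 84 members were called at 1 or more of the 6 stages for ndr2 against uninjected explants, a share of 7.14% beside 5.45% of all genes. For CA-acvr1b* against uninjected explants 1 member was called, beside 3% of all genes. In that comparison the members' median log2 fold change at 30% epiboly was -0.23, where that of all genes was -0.06. None was called at that stage, and edgeR's unadjusted p was under 0.05 for 8. The share of all genes with such an unadjusted p was not counted, here or below. Without every replicate A 2 members were called for ndr2 against uninjected explants, and without every replicate B or C none; for CA-acvr1b* the 1 call was lost without replicate B or C. For ndr2 against CA-acvr1b* explants none was called, beside 1.35% of all genes; edgeR's unadjusted p was under 0.05 for 14, 11, 14, 2, 1 and 2 members from sphere to 90% epiboly, and DESeq2 called 3. DESeq2 also called more of all genes. At 50% epiboly it called 114 higher and 189 lower, where edgeR called 44 and 93. Its share of all genes over the 6 stages was not counted. Without replicate A 1 member was called for ndr2 against CA-acvr1b* explants. The comparisons with uninjected explants share the uninjected libraries.

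At sphere 1 member was lower in ndr2 than in uninjected explants, which is 1.19% of the members beside 0.157% of all genes. It was ndufa3, an accessory complex I subunit. Its libraries held 0.694, 0.937 and 0.192 CPM in ndr2 explants, against 2.45, 1.94 and 1.18 CPM in uninjected explants, which did not overlap (log2 fold change -1.60, SE 0.37, adjusted p 0.0300). Its call was lost without replicate A or C of ndr2 explants (adjusted p 0.0632 and 0.185) and without replicate A or B of uninjected explants (0.243 and 0.0819), and without every replicate A, B or C (0.445, 0.405 and 0.0583) or the filter on low counts (0.0571).

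At 50% epiboly 3 members were lower in ndr2 than in uninjected explants, which is 3.57% of the members beside 0.949% of all genes. ndufb11, an accessory complex I subunit, held 4.26, 3.29 and 3.37 CPM in ndr2 explants, against 10.1, 7.94 and 5.13 CPM in uninjected explants (-1.08, SE 0.30, adjusted p 0.0466). cox6a1, of complex IV, held 31.8, 24.0 and 23.8 CPM in ndr2 explants, against 61.5, 38.7 and 33.9 CPM in uninjected explants (-0.75, SE 0.19, adjusted p 0.0275). atp5fa1 held 522, 519 and 461 CPM in ndr2 explants, against 717, 607 and 606 CPM in uninjected explants (-0.36, SE 0.10, adjusted p 0.0429). The ndr2 and uninjected libraries did not overlap for any of the 3, and uninjected replicate A was the highest library for all 3. That library had the highest total of all, 19650245 counts, but only 15746 genes with a count. Uninjected replicates B and C had 19285 and 18700 such genes. Without uninjected replicate A none was called: ndufb11 had an adjusted p of 0.302, cox6a1 one of 0.378 with a log2 fold change of -0.45, and atp5fa1 one of 0.300.

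Some calls at that stage were also lost without single ndr2 libraries, in fits with fewer libraries, though the differences did not all shrink. Without ndr2 replicate A the log2 fold changes grew to -1.23 for ndufb11 and -0.41 for atp5fa1. Leaving out ndr2 replicate C gave -1.04 for ndufb11, -0.69 for cox6a1 and -0.31 for atp5fa1. Without ndr2 replicate A the adjusted p was 0.0635 for ndufb11 and 0.0558 for atp5fa1; without replicate B it was 0.153 for ndufb11, 0.120 for cox6a1 and 0.0766 for atp5fa1; without replicate C it was 0.192, 0.165 and 0.239. Without uninjected replicate B it was 0.0792 for ndufb11. On library totals none of the 3 was called (0.0591, 0.0517 and 0.0982), nor with no filter on low counts (0.0965, 0.0599 and 0.163). Leaving out every replicate A (0.210, 0.227 and 0.164), B (0.246, 0.209 and 0.205) or C (0.214, 0.103 and 0.282) also ended all 3 calls. With relative log expression factors atp5fa1 was not called (0.0603), and with a replicate block ndufb11 was not (0.0509). Across the 84 members the median log2 fold change at this stage was -0.23, where that of all genes was -0.02. By edgeR's F-test 25 members had an unadjusted p under 0.05, and the like share of all genes was not counted. The summed share of the members at 50% epiboly was 0.264 ± 0.031% in ndr2 explants and 0.307 ± 0.016% in uninjected explants.

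At 90% epiboly 2 members were higher in ndr2 than in uninjected explants, which is 2.38% of the members beside 1.42% of all genes, and 1 was higher in CA-acvr1b* explants, 1.19% beside 1.93%. Across the 84 members the median log2 fold change against uninjected explants was 0.21 for ndr2 and 0.09 for CA-acvr1b*. Over all genes both medians were 0.00. edgeR's unadjusted p was under 0.05 for 17 and 2 members, without a like count over all genes. The summed share of the members was 0.328 ± 0.018% in ndr2 and 0.286 ± 0.0068% in uninjected explants. ndufv3 held 10.6, 15.6 and 14.6 CPM in ndr2 explants, 11.2, 10.0 and 12.6 CPM in CA-acvr1b* explants and 9.92, 5.75 and 4.04 CPM in uninjected explants. Uninjected libraries lay below all others, replicate A just below. The log2 fold change was 1.06 for ndr2 (SE 0.23, adjusted p 0.00313) and 0.78 for CA-acvr1b* (SE 0.23, adjusted p 0.0477) against uninjected explants. Without uninjected replicate C these values were 0.82 (adjusted p 0.0669) and 0.54 (0.455), and without replicate A of all conditions they were 1.61 and 1.20. Leaving out every replicate B gave 0.86 (0.228) and 0.77 (0.326), and leaving out every replicate C gave 0.75 (0.484) and 0.45 (1). The CA-acvr1b* call was lost without any 1 of its own 3 libraries A, B and C (0.121, 0.0612 and 0.209) and without uninjected replicate B (0.216). It was also lost with relative log expression factors (0.0568), on library totals (0.0592) and with no filter (0.104). Without uninjected replicate A alone its log2 fold change was 1.19.

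sdha was the other, with 48.7, 42.4 and 45.8 CPM in ndr2 explants at 90% epiboly and 37.4, 36.3 and 26.6 CPM in uninjected explants (0.45, SE 0.13, adjusted p 0.0426). Every ndr2 library lay above every uninjected one. The call was lost without ndr2 replicate A, B or C (adjusted p 0.193, 0.0672 and 0.106) and without uninjected replicate C (0.344). It was also lost on library totals (0.0664), with no filter on low counts (0.110) and without every replicate A, B or C (0.0706, 0.197 and 0.712).

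**Figure D5:**
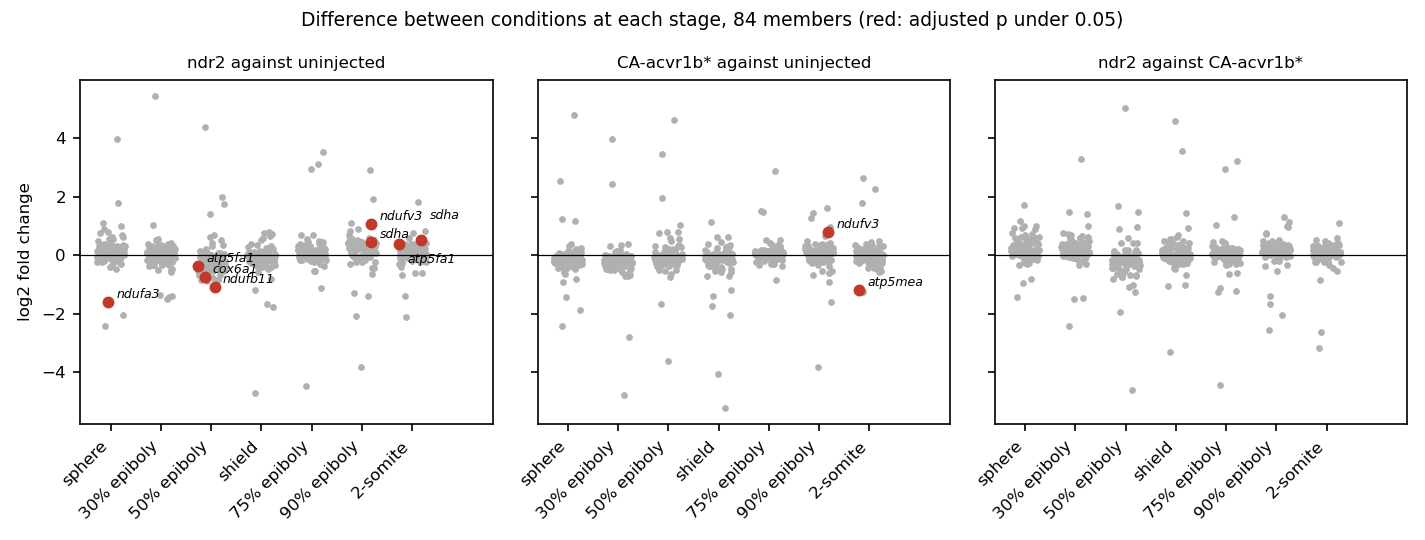
Log2 fold change of the 84 members at each of the 7 stages (x axis) for ndr2 against uninjected, CA-acvr1b* against uninjected and ndr2 against CA-acvr1b* explants, from left to right. Each point is 1 gene, and called genes are red and named. In the ndr2 against uninjected panel 4 genes are called below 0 up to 50% epiboly and sdha, ndufv3 and atp5fa1 above 0 from 90% epiboly on. The grey points farthest from 0 rest on few counts.

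At 2-somite sdha and atp5fa1 were higher in ndr2 than in uninjected explants. The 2 members called higher and 0 called lower stand beside 7.4% and 4.84% of all genes; for the falls, edgeR's unadjusted p was under 0.05 for 1 member and DESeq2 called 1. sdha held 47.7 ± 3.63 CPM in ndr2 explants, against 33.2 ± 4.27 CPM in uninjected explants (log2 fold change 0.52, SE 0.13, adjusted p 0.00298). atp5fa1 held 358 ± 17.9 CPM in ndr2 explants, against 276 ± 14.3 CPM in uninjected explants (0.37, SE 0.10, adjusted p 0.00626). The libraries given above for this stage do not overlap between these conditions for either gene. Without uninjected replicate A the adjusted p was 0.0625 for sdha and 0.0714 for atp5fa1, and without ndr2 replicate B it was 0.0533 for atp5fa1. Without replicate A of all conditions and stages the log2 fold change of sdha was 0.35 (adjusted p 0.166), and without every replicate B or C the adjusted p of atp5fa1 was 0.141 or 0.0641.

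CA-acvr1b* explants at 2-somite had values between those of the other conditions for both genes. sdha held 41.8 ± 2.38 CPM there and had a log2 fold change of 0.33 against uninjected explants (adjusted p 0.105), and atp5fa1 held 337 ± 12.7 CPM with 0.29 (adjusted p 0.0575). No member was higher in CA-acvr1b* than in uninjected explants, beside 6.46% of all genes, though edgeR's unadjusted p was under 0.05 for 3, and DESeq2 called 0. The 1 member that was lower, beside 2.68% of all genes, was atp5mea, with 2.32, 1.54 and 0.856 CPM in CA-acvr1b* explants and 4.31, 3.36 and 3.12 CPM in uninjected explants (-1.19, SE 0.40, adjusted p 0.0473). The call was lost without CA-acvr1b* replicate B or C (0.102 and 0.281) and without uninjected replicate A, B or C (0.201, 0.0734 and 0.0569). It was also lost without every replicate A, B or C (0.157, 0.166 and 0.333) and with no filter on low counts (0.0638).

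Between ndr2 and CA-acvr1b* explants no member was called at 2-somite, beside 0.0524% of all genes called higher and 0.309% called lower. edgeR's unadjusted p was under 0.05 for 2 members, both lower, and DESeq2 called 0. Regulators of mitochondrial biogenesis are not members. At this stage 5 of 26 were higher in ndr2 and 4 of 26 in CA-acvr1b* than in uninjected explants, and 0 were lower. Of all genes 7.4% were higher and 4.84% lower in ndr2, and 6.46% and 2.68% in CA-acvr1b* explants. Of 32 carriers and import genes, 3 were higher and 1 lower in ndr2, and 5 and 0 in CA-acvr1b* explants. Of 63 mitochondrial ribosomal proteins, 2 were higher and 1 lower in ndr2, and 1 and 1 in CA-acvr1b* explants.

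Markers of cell fate moved with these conditions at 2-somite. Of 9 tested Nodal target genes, 8 were higher in ndr2 and 8 in CA-acvr1b* than in uninjected explants, with summed levels of 429 to 925, 381 to 1668 and 4.99 to 12.5 CPM; gsc, the 10th gene of the list, was at 0. Of 7 ectoderm genes, 3 were higher and 3 lower in each injected condition, and their sums were 1863 to 2240 CPM in ndr2, 1557 to 2620 CPM in CA-acvr1b* and 4618 to 5274 CPM in uninjected explants. None of the 8 enveloping layer genes was called between conditions at this stage. Early muscle genes, in a tissue rich in mitochondria when mature, summed to 28.4 to 118 CPM in ndr2, 14.1 to 55.9 CPM in CA-acvr1b* and 9.68 to 20.4 CPM in uninjected explants, with ckma and mylpfa at 0 in all 3. The part of these cells in the values of sdha and atp5fa1 was not tested.

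Averaged over the 7 stages with equal weights, differences between conditions were small. These tests treated libraries of the same replicate letter at different stages as independent. Whether such libraries share a clutch is not given in the sources used here. If they do, the adjusted p of these averages could be too small, or too large if conditions share clutches as well. For ndr2 against uninjected explants 3 members were higher and 0 lower, beside 7.71% and 10.2% of all genes. For the falls edgeR's unadjusted p was under 0.05 for 6 members, and DESeq2 called 4. Without replicate A 4 members were called lower, and without replicate B or C 1 was; without replicate B 1 was called higher. ndufaf2, which helps to build complex I, had a log2 fold change of 0.52 (SE 0.10, adjusted p 1.84e-04), ndufv3 one of 0.29 (SE 0.08, adjusted p 0.00905) and sdha one of 0.16 (SE 0.05, adjusted p 0.0163). At sphere ndufaf2 stood at 20.6, 24.1 and 21.1 CPM in ndr2, 17.4, 17.3 and 18.6 CPM in CA-acvr1b* and 15.6, 13.6 and 13.3 CPM in uninjected explants. The ndr2 libraries were highest there and at 2-somite, where they held 12.2, 10.9 and 10.2 CPM, against 6.87, 6.22 and 6.56 CPM in uninjected explants. ndufaf2 stayed past the threshold in all 8 alternative fits, with adjusted p between 7.36e-06 and 0.0345. ndufv3 lost its call without replicate B or C (0.145 and 0.132), and sdha without replicate A, B or C (0.169, 0.115 and 0.0782).

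For CA-acvr1b* against uninjected explants the average was higher for 0 members and lower for 3, beside 3.9% and 2.91% of all genes. For the rises edgeR's unadjusted p was under 0.05 for 3 members, and DESeq2 called 0. Those lower were ndufb3 of complex I (-0.31, adjusted p 0.0318), atp5po of the ATP synthase stalk (-0.25, adjusted p 0.0174) and atp5mc3b of its rotor (-0.17, adjusted p 0.0312). Without replicate A none of these was called, with log2 fold changes of -0.19, -0.15 and -0.08 (adjusted p 0.409, 0.353 and 0.541), and without replicate B 1 member was called higher. Without replicate B atp5po (0.0639) and atp5mc3b (0.0530) lost their calls, and without replicate C ndufb3 (0.193) and atp5mc3b (0.107) did, as they did with no filter on low counts (0.0511 and 0.0578).

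For ndr2 against CA-acvr1b* explants 4 members were higher on average and 1 was lower, beside 3.42% and 5.56% of all genes. They were atp5mea (0.44, adjusted p 0.0433), cox7c (0.40, adjusted p 0.0265), cox5ab (0.26, adjusted p 0.0258) and atp5mc3b (0.18, adjusted p 0.0163), and in the other direction ndufa4l (-0.12, adjusted p 0.0485). Without replicate A or B none of these 5 was called, with adjusted p between 0.0656 and 0.448; without replicate C atp5mea (0.132) and ndufa4l (0.410) lost their calls, and with no filter on low counts these same genes did (0.0637 and 0.113). The log2 fold change was 0.24 for cox7c without replicate B and 0.10 for atp5mc3b without replicate A. For cox5ab it was 0.14 without replicate A and 0.44 without replicate C.

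The difference between ndr2 and uninjected explants depended on stage for 2 members, beside 5.32% of all genes. They were atp5fa1 (adjusted p 0.00347) and sdha (adjusted p 0.0105). DESeq2 called 7 members, and its share over all genes is not given, here or below. For atp5fa1 the ndr2 mean was 501 CPM at 50% epiboly against 643 CPM in uninjected explants, and 358 against 276 CPM at 2-somite. For sdha the ndr2 mean was 56.3 against 64.5 CPM at 50% epiboly, 55.3 against 44.5 CPM at shield, 46.3 against 40.0 CPM at 75% epiboly and 45.6 against 33.4 CPM at 90% epiboly. Without replicate A 1 member was called, and without replicate B or C none. For CA-acvr1b* against uninjected explants the dependence was called for 0 members, beside 3.43% of all genes, with an unadjusted p under 0.05 for 6 and 0 called by DESeq2. For ndr2 against CA-acvr1b* explants it was called for 0, beside 0.11% of all genes, with an unadjusted p under 0.05 for 8 and 1 called by DESeq2.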

How the data were processed

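Libraries of polyadenylated RNA from zebrafish blastoderm explants were compared between 3 conditions at 7 stages, with 3 replicates each. The deposited table holds raw counts of reads per gene, whole numbers with no normalization, per the file headers and values. The submitters' processing notes name Trim Galore, STAR, featureCounts and the build GRCz11 (danRer11); versions, strand settings and the treatment of reads matching several genes are not given in the sources used here.

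Genes passing edgeR's filterByExpr over the 21 groups (minimum count 10, minimum total 15), 19069 genes with 99.969% of counts, were fitted in 1 model with TMM factors and tested with edgeR 4.0.16 (quasi-likelihood F-test, robust, 42 residual degrees of freedom) in R 4.3.3, with Benjamini-Hochberg adjustment over all of them and a threshold of 0.05. Fold changes used a prior count of 0.125. SEs are the log2 fold change divided by the root of F. The common biological coefficient of variation was 0.309. Intervals and limits from counts cover counting error only.

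Alternatives were DESeq2 1.42.0, relative log expression factors, library totals alone, no filter, a replicate block, and leaving out each replicate; leaving out single libraries was added after the data were seen. P-values measure the spread between these replicates, which the study calls biological; whether they came from separate clutches is not given in the sources used here.

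Members and lists were chosen with earlier results of these data known. Named genes were the highest member of each class, the 10 largest rises and falls in uninjected explants at 2-somite against sphere, the members called between conditions, and their duplicates; others are given to fill out their complex and were chosen after their values were seen. dld was taken off the list of pyruvate dehydrogenase genes after its values were seen, because in zebrafish that symbol is deltaD. Without a genome or sequence tables, no sequence is shown. Some single-gene results are not reported here.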

Additional observations from a re-analysis of the deposited data

Results flagged for a closer look

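The difference between ndr2 and uninjected explants varied with stage for atp5fa1 (adjusted p 0.00347) and sdha (adjusted p 0.0105) by edgeR's interaction test. For atp5fa1 the ndr2 mean was below the uninjected mean at 50% epiboly (501 against 643 CPM) and above it at 2-somite (358 against 276 CPM).

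Signal was also present in 5 genes of the same complexes that the symbol rule left out, since their symbols are in capitals or their annotation is not protein coding. COX5B, a complex IV subunit, averaged 96.1 CPM over the 63 libraries, with 115 ± 2.33 CPM at 2-somite against 53.9 ± 14.2 CPM at sphere in ndr2 explants and 129 ± 10.5 against 45.5 ± 12.4 CPM in uninjected explants. COX7A2 (1 of many) averaged 16.2 CPM. NDUFB1 averaged 2.28 CPM, with 5.00 ± 2.29 CPM at 2-somite against 0.395 ± 0.191 CPM at sphere in uninjected explants. NDUFAF8 averaged 0.720 CPM. ndufs8b, annotated as a polymorphic pseudogene, averaged 5.59 CPM, with 0.0861 ± 0.149 CPM at 2-somite against 12.8 ± 2.61 CPM at sphere in ndr2 explants and 0.105 ± 0.129 against 11.9 ± 2.29 CPM in uninjected explants. No such gene was named in the comparisons above, and these differences are given without a test.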

How the results depend on the processing

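Of 338 alternatives for counts and shares, 264 stayed within 1.5 times of the reported count or 1 SD of the share and 74 moved. Of 388 for named genes, 270 kept their side of the threshold and 118 lost the call; none of these turned direction, while members that did so on library totals are given with the time course. Only called results entered, so a call could be kept or lost but not gained. For the 20 genes named for their change over time, 144 alternatives kept the call and 16 lost it. Most of the lost calls were therefore between conditions. The 20 were the largest rises and falls among the members called in that test, a choice that favors keeping their calls. Other members called over time did not enter. The causes of these moves were not tested.

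On library totals alone, members lower at 2-somite against sphere were 17 in uninjected explants, and members lower at shield against sphere 24 in ndr2, 16 in CA-acvr1b* and 14 in uninjected explants. Before 2-somite, this setting called 2 members between ndr2 and uninjected explants, 0 between CA-acvr1b* and uninjected explants, and 1 between both injected conditions. With no filter on low counts the first 2 were 1 and 0. With that setting CA-acvr1b* against uninjected had 0 lower at 2-somite and 1 lower on average, ndr2 against CA-acvr1b* had 0 lower on average, and stage dependence was called for 1 member for ndr2 against uninjected. DESeq2 called 1 member lower at 2-somite, 4 lower on average and 7 dependent on stage for ndr2 against uninjected, and 3 before 2-somite and 1 dependent on stage for ndr2 against CA-acvr1b*. Over all genes DESeq2 called 1343 lower at 2-somite and 2520 lower on average for ndr2 against uninjected, where edgeR called 923 and 1950. Its like counts for stage dependence are not given. With relative log expression factors 2 were lower on average for ndr2 against uninjected, and before 2-somite 0 were called between CA-acvr1b* and uninjected explants and 1 between both injected conditions.

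Samples with the same replicate letter deviated together in some comparisons and in opposite directions in others. Within a stage, correlations of their deviations between conditions ran between -0.321 and 0.349, with 12 of 63 over 0.1. The highest were 0.349 at sphere and 0.279 at 30% epiboly, both for replicate C of CA-acvr1b* and uninjected explants. The lowest was -0.321 at sphere, for replicate C of ndr2 and uninjected explants. Next came -0.292 at 75% epiboly, for replicate A of CA-acvr1b* and uninjected explants. Between 2-somite and sphere of 1 condition 0 of 9 were over 0.1, and other pairs of stages were not compared. With the letter as a replicate block, 48 members rose and 12 fell at 2-somite against sphere in uninjected explants. The block called 5 members before 2-somite for ndr2 against uninjected and 1 between the injected conditions, 3 higher at 2-somite for ndr2 against uninjected, and 3 dependent on stage.

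Shares of a total without its 10 most abundant genes were 0.364% in ndr2, 0.349% in CA-acvr1b* and 0.336% in uninjected explants at 2-somite, and 0.297% in uninjected explants at sphere. Without the most abundant member of each class the members held 0.239%, 0.227% and 0.222% at 2-somite, against 0.178%, 0.152% and 0.163% at sphere.

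With replicates left out, members higher and lower at 2-somite against sphere ranged over 42 to 47 and 10 to 12 in ndr2, 47 to 51 and 10 to 12 in CA-acvr1b*, and 42 to 46 and 9 to 11 in uninjected explants. At shield against sphere they ranged over 40 to 43 and 6 to 7, 43 to 45 and 5 to 7, and 43 to 47 and 6 to 7. At 2-somite against shield they ranged over 12 to 26 and 5 to 6, 10 to 26 and 6 to 13, and 9 to 15 and 5 to 11. For ndr2 against uninjected explants 0 to 2 were called before 2-somite, 0 to 3 higher at 2-somite, 1 to 3 higher and 1 to 4 lower on average and 0 to 1 dependent on stage. For CA-acvr1b* against uninjected explants 0 to 1 were called before 2-somite, 0 to 1 lower at 2-somite, and 0 to 1 higher and 0 to 1 lower on average. For ndr2 against CA-acvr1b* explants 0 to 1 were called before 2-somite, and 0 to 4 higher and 0 to 0 lower on average. For 3 of the 9 members under 1000 counts, the calls in uninjected explants moved with the setting: those of ndufa8, ndufs7 and cox4i2 at 2-somite against sphere were each lost under several alternatives.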
